A study of Mus musculus with 9 samples.

Results

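Epidermal growth factor (EGF) family ligands and receptors were examined by RNA sequencing in intestinal epithelial cells (IECs) of mice whose natural killer T (NKT) cells had been activated. The set held 6 ligands (Egf, Tgfa, Areg, Ereg, Hbegf and Btc), 3 receptors (Egfr, Erbb2 and Erbb3) and the receptor inhibitor Lrig1. These 10 genes were taken by matching the Ensembl identifiers of the count table to their symbols, out of 29288 genes in the table, and all 10 had enough reads to be tested. The IECs were live EpCAM+, Ter119-, CD31-, CD45- cells sorted from proximal small intestinal crypts. All mice were young adult C57BL/6J females of WT genotype. Control mice received PBS and were sampled 18 h later. The 18h-αGal and 72h-αGal mice were injected with αGalCer (α-galactosylceramide, 2 µg), a lipid antigen shown to NKT cells by CD1d, and were sampled after 18 h or 72 h. Each group had 3 mice and each library came from 1 mouse. All controls were taken at 18 h, so for the 72h-αGal mice treatment and sampling time cannot be told apart.

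EGF family ligands are made as membrane-anchored precursors that metalloproteases cut free. They bind EGFR, which pairs with itself or with ERBB2, a receptor that has no ligand of its own, or with ERBB3, whose kinase is weak and which binds neuregulins. The active pairs signal through the RAS-ERK and PI3K-AKT cascades, and EGF is a standard component of the medium in which small intestinal crypts grow as organoids. LRIG1 is a membrane protein that lowers the amount of EGFR family receptors and is expressed in crypt base stem and progenitor cells.

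On GRCm39, 3 of the ligand genes lie close together on chromosome 5. These were Ereg (ENSMUSG00000029377, chr5:91222157-91241505, plus strand), Areg (ENSMUSG00000029378, chr5:91287451-91296291, plus strand) and Btc (ENSMUSG00000082361, chr5:91505120-91550883, minus strand). Egf (ENSMUSG00000028017) spans chr3:129470410-129549093 on the minus strand and Tgfa (ENSMUSG00000029999) chr6:86172041-86252728 on the plus strand. Egfr (ENSMUSG00000020122, chr11:16702198-16868158) and Erbb2 (ENSMUSG00000062312, chr11:98303203-98328542) are both on the plus strand of chromosome 11. Erbb3 (ENSMUSG00000018166) lies at chr10:128403392-128425811 and Lrig1 (ENSMUSG00000030029) at chr6:94581510-94677242, both on the minus strand. Values are for whole genes, with the exons of all annotated isoforms together. Genes on the opposite strand shared 23.3% of the exon bases of Lrig1 (Slc25a26), 16.3% of those of Hbegf (Gm41698) and at most 5.14% of those of any other member. The strand setting of the counting was not given in the sources used here, so reads in these shared exons may belong to either gene.

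RefSeq promoter sequence on GRCm38.p6 was on hand for 7 of the 10 members. The 250 bases before the start are shown for 3 of them, because they stand for the distinct outcomes reported here: Egfr was lower at 18 h, its partner Erbb2 did not pass the test, and Areg is the most abundant ligand per exon length after Hbegf. The regions are chr5:91139349-91139598 (Areg), chr11:16751953-16752202 (Egfr) and chr11:98412234-98412483 (Erbb2), all on the plus strand. Capitals mark matches, on either strand, to a cAMP response element (CRE, TGACGTCA), an AP-1 site (TGANTCA), a GAS element (TTCNNNGAA), a GC box (GGGCGG) or a TATA box (TATAAA).
Areg: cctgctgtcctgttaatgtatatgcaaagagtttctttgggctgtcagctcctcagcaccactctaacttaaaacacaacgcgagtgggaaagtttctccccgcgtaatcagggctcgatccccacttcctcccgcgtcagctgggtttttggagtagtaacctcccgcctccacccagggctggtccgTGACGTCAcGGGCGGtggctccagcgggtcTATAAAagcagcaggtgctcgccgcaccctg
Egfr: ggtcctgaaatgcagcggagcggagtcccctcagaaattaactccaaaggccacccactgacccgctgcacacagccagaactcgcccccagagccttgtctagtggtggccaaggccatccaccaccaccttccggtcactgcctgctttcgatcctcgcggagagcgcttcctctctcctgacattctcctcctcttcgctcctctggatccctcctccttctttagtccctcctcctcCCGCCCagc
Erbb2: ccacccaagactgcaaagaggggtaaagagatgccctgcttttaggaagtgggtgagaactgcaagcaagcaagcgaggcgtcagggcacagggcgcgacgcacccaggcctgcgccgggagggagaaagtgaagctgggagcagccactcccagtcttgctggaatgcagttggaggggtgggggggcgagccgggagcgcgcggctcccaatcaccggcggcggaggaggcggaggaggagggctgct
The Areg promoter held a CRE match that began 61 bases before the start, a GC box at 52 and a TATA box at 31. The Egfr promoter held a GC box on the opposite strand at 9 bases, and the Erbb2 promoter held none of the 5 motifs. Of 32851 promoters of this length, 1.55% held the CRE, 6.75% the AP-1 site, 7.02% the GAS element, 32.7% the GC box and 12.4% the TATA box. GC content was 57.2% for Areg, 60.8% for Egfr and 66.0% for Erbb2. These matches are descriptions of the letters and were not tested for binding.

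Total counts ranged from 8887861 to 32722293 per library, a 3.68-fold range, and the smallest library, control mouse 3, stood apart from the other 8 on the second principal component. Epithelial markers were abundant in every library, with Epcam between 16279 and 22719 normalised counts (counts divided by the library's size factor). Summed markers of other lineages were low. For 7 of 8 listed stroma genes in the table (mostly Vim) they were 326 to 496 normalised counts in controls, 577 to 666 at 18 h and 153 to 181 at 72 h, without overlap. This order was that of Vim, with means of 350, 595 and 140. Col1a1 (21.6, 2.76 and 6.21) and Col1a2 (13.1, 3.29 and 5.79) had lower means at 18 h than in controls, and neither was called. Summed markers for 11 of 12 immune genes were 366 to 537, 413 to 672 and 685 to 864. For 4 of 7 endothelial and red cell genes they were 71.2 to 78.5, 18.0 to 37.3 and 56.5 to 86.1. Cd3e and Ms4a1 were at 0 in all controls, and Cd3g and Cd4 at 0 in all 18h-αGal mice. Summed stem cell markers, mostly Olfm4 and Slc12a2, were 72639, 86988 and 45655 in controls, 42759, 32805 and 13421 at 18 h and 69343, 58593 and 91632 at 72 h. The 18h-αGal mice were below all others in this sum, while none of the 8 stem cell genes passed the test at 18 h. Brunner's gland markers, almost all Gkn3, ranged over 116 to 494 in controls, 5.52 to 36.6 at 18 h and 144 to 541 at 72 h. Enteroendocrine markers were 7961 to 10995 in controls, 11187 to 18374 at 18 h and 3660 to 5620 at 72 h, without overlap. Tuft markers were 3207 to 5497, 5605 to 10913 and 3333 to 5454, so that 18h-αGal mice were above all others. Enterocyte markers were 87760 to 207401, 112067 to 183365 and 55421 to 104557, with 72h-αGal mice below all 18h-αGal mice. Paneth and goblet sums overlapped between all groups. The part that these differences had in the EGF family results was not tested.

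To compare the RNA levels of the members in crypt IECs, normalised counts were divided by exon length and ranked. This length, from 1.22 kb for Areg to 12.2 kb for Egf, joined the exons of all annotated isoforms. Which isoforms were expressed was not tested, so the order depends on that length. In controls, Erbb3 stood at 1870 ± 224 normalised counts per kb of exon (SD, n = 3) and Hbegf at 1720 ± 190, and the ranges of this leading pair overlapped. Areg (901 ± 196) and Erbb2 (785 ± 80.9) came next and overlapped each other. Lrig1 followed at 458 ± 86.3, Egfr at 161 ± 7.76 and Tgfa at 121 ± 11.9, with no overlap between neighbours. The lowest were Btc at 29.8 ± 3.47, Ereg at 16.0 ± 8.04 and Egf, the ligand that names the family, at 3.17 ± 3.58. In 18h-αGal mice Hbegf (1170 ± 296) and Erbb3 (1150 ± 133) still led, Egfr (98.2 ± 22.8) came after Tgfa (125 ± 17.1) with overlapping ranges, and Btc (15.6 ± 7.35) came after Ereg (17.7 ± 1.78), also with overlap. In 72h-αGal mice Erbb2 (793 ± 69.8) came before Areg (624 ± 227), and Areg overlapped Lrig1 (509 ± 69.9) as well. Egf had the lowest mean in all 3 groups, overlapping Ereg (7.08 ± 4.49 against 4.66 ± 1.57) at 72 h, at raw counts of 6 to 94 per library, above the detection floor of 3 counts.

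**Figure D1:**
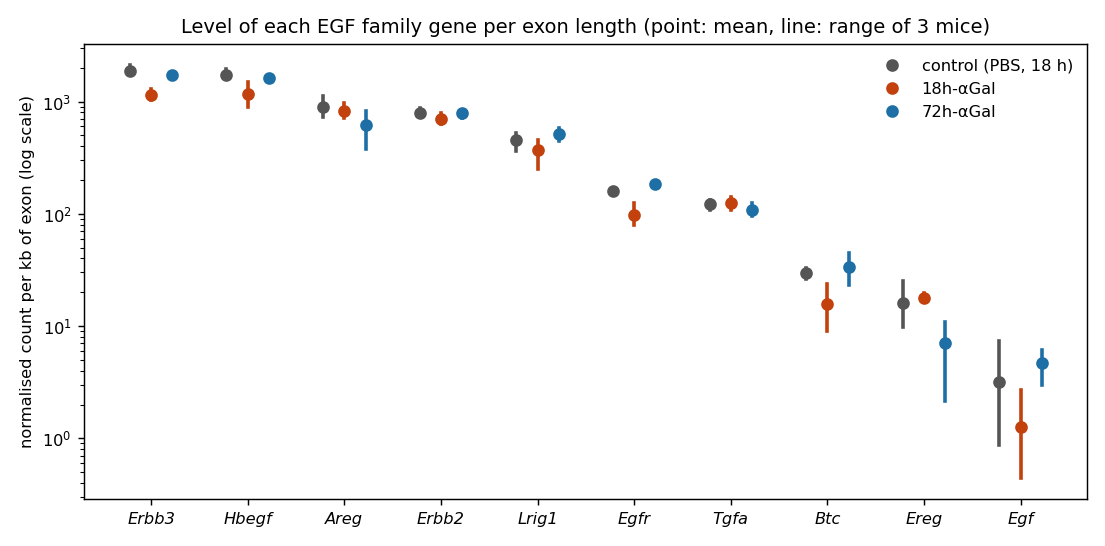
Normalised count per kb of exon (log scale) for the 10 EGF family genes, with the mean (point) and the range (line) of 3 mice per group: control (grey), 18h-αGal (orange) and 72h-αGal (blue). Erbb3 and Hbegf lead in every group, and Egf has the lowest mean, from 1.27 to 4.66 normalised counts per kb.

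The comparison of 18h-αGal with control mice asked how NKT cell activation altered these genes early on. The receptors Erbb3 and Egfr and the ligand Hbegf were lower after αGalCer, at 0.619, 0.614 and 0.685 of the control level, whereas Erbb2, Lrig1 and the other ligands did not pass the test. Of the 10 members, 3 were called, all lower, by edgeR's quasi-likelihood test at an adjusted p below 0.05. Over all 18933 genes tested 5.96% were called, 2.69% as lower. The members' median log2 fold change was -0.43, against -0.03 over all genes. In these bulk libraries, fewer cells of a type and less RNA per cell cannot be told apart.

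Erbb3 encodes the kinase-impaired receptor that recruits PI3K after pairing. Control mice had 10821, 11143 and 13408 normalised counts of Erbb3, and 18h-αGal mice had 7059, 6534 and 8174. Every 18h-αGal mouse was below every control. The log2 fold change was -0.69 ± 0.12 (SE, 95% interval -0.94 to -0.44, edgeR adjusted p = 0.00304), and it stayed past the threshold in all 16 alternative analyses.

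Egfr encodes the receptor of EGF, TGFα and amphiregulin. Its normalised counts were 1838, 1962 and 1788 in controls and 1429, 1051 and 923 at 18 h. The controls lay within a narrow band, with a coefficient of variation of 4.81%, and all 18h-αGal mice were under it, although they varied more (23.2%). Egfr decreased by 0.70 ± 0.15 on the log2 scale (interval -1.02 to -0.38, edgeR adjusted p = 0.0130). Without 18h-αGal mouse 2 the adjusted p was 0.0747 at a log2 fold change of -0.65. Without 18h-αGal mouse 3, Egfr, Erbb3 and Hbegf were all called.

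Erbb2, the shared partner without a ligand, had 4054, 3951 and 4757 normalised counts in controls and 3557, 3420 and 4323 at 18 h. The groups overlapped, and the log2 fold change of -0.17 ± 0.12 (-0.42 to 0.09) did not pass the test (edgeR adjusted p = 0.474). The lower end of that interval means that a modest decrease of Erbb2 lay within the error of these mice. Lrig1, the inhibitor, had 3125, 3309 and 2282 in controls and 2510, 2898 and 1576 at 18 h, with overlap. Its log2 fold change was -0.31 ± 0.22 (-0.78 to 0.16, adjusted p = 0.463 by edgeR).

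Among the ligands, Hbegf, which encodes heparin-binding EGF-like growth factor, was the most highly expressed per exon length and the only one called. The gene (ENSMUSG00000024486) lies at chr18:36637980-36649677 on the minus strand of GRCm39. Controls had 8189, 8241 and 9897 normalised counts, and 18h-αGal mice had 4605, 5752 and 7601. The groups did not overlap, but the 18h-αGal mice were spread widely (coefficient of variation 25.3%). The log2 fold change was -0.55 ± 0.15 (-0.87 to -0.22), with an edgeR adjusted p of 0.0451, close to the threshold. Hbegf was called in 6 of 16 alternative analyses, with adjusted p from 0.00417 to 0.162 and log2 fold changes from -0.75 to -0.39. It was lost with RLE size factors, with only the 2 groups compared, with the replicate number as a block (edgeR adjusted p = 0.0595), and without any single mouse other than 18h-αGal mouse 3 or 72h-αGal mouse 3.

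Btc, which encodes betacellulin, a ligand of both EGFR and ERBB4, was a minor transcript. Its normalised counts were 119, 150 and 138 in controls and 107, 63.8 and 41.4 at 18 h. All 18h-αGal mice were below all controls, by a small margin for mouse 1. The log2 fold change was -0.90 ± 0.38 (-1.71 to -0.10), with an edgeR adjusted p of 0.183. Together with the 3 called genes, Btc made 4 of 10 members whose groups did not overlap, where 23.8% of all tested genes did not overlap.

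The remaining ligands did not separate the groups at 18 h. Areg, which encodes amphiregulin, had 886, 1056 and 1360 normalised counts in controls and 980, 872 and 1189 at 18 h. Its log2 fold change was -0.11 ± 0.24 (-0.64 to 0.42, edgeR adjusted p = 0.863). Tgfa, which encodes transforming growth factor α, had 907, 822 and 744 against 974, 739 and 855. This was the member with the smallest estimate, at 0.06 ± 0.16 (-0.28 to 0.40, edgeR adjusted p = 0.885). Ereg, which encodes epiregulin, had 43.5, 58.8 and 112 against 73.1, 88.0 and 75.9, for a log2 fold change of 0.19 ± 0.54 (-0.97 to 1.35, edgeR adjusted p = 0.894). Egf itself had 10.6, 89.2 and 16.6 against 32.8, 5.39 and 8.28. Control mouse 2 alone held most Egf reads of its group, and the log2 fold change of -1.28 ± 0.83 spanned -3.06 to 0.50 (edgeR adjusted p = 0.422). No difference in Egf was detectable beyond this spread.

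**Figure D2:**
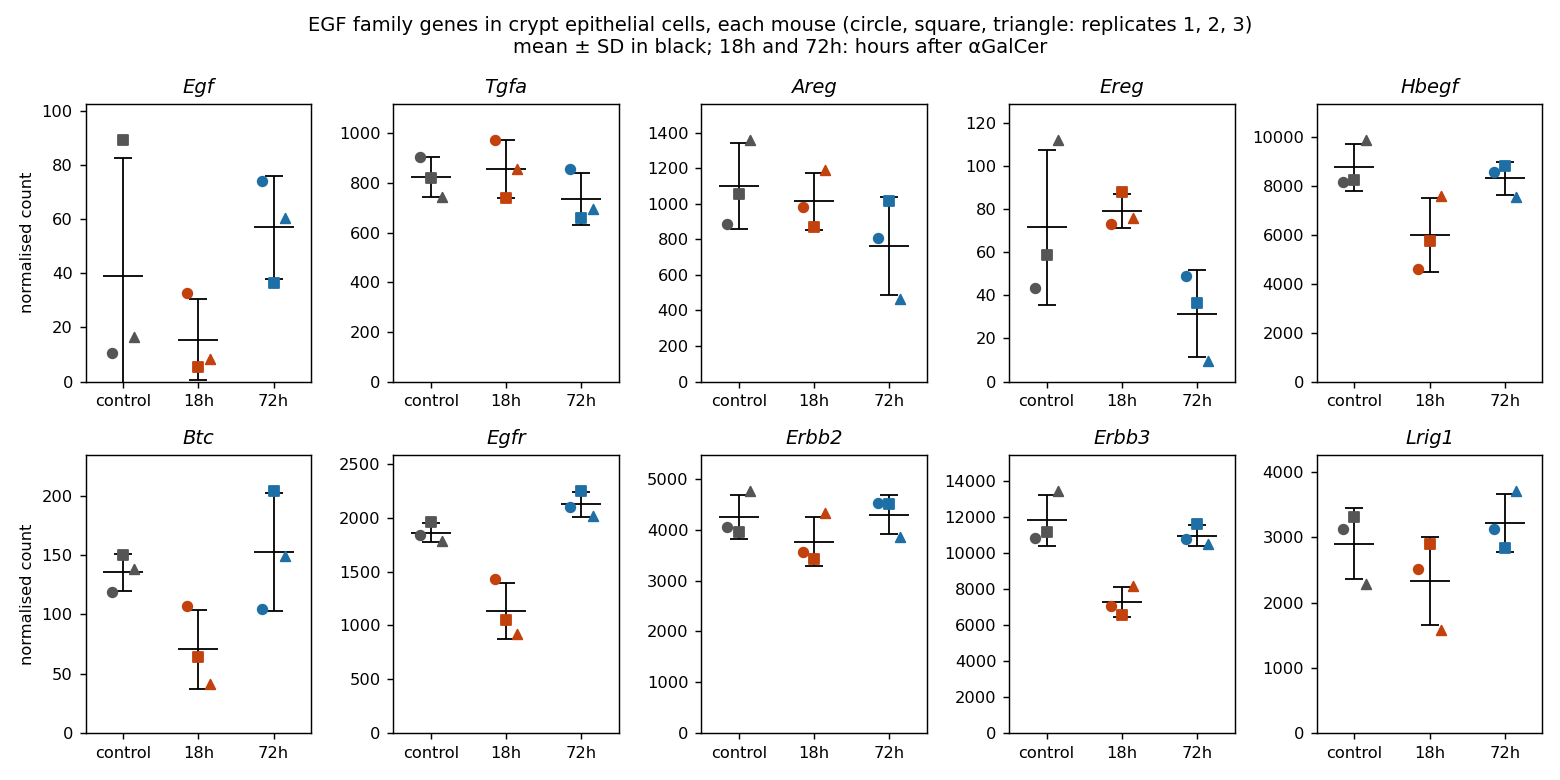
Normalised count of each EGF family gene in every mouse (circle, square and triangle for replicates 1, 2 and 3), with mean ± SD in black; each vertical axis starts at 0 and has its own scale, and the lower end of the control bar of Egf falls below the axis. Erbb3, Egfr, Hbegf and Btc are lower in all 3 mice at 18h-αGal than in all controls, and Erbb3 and Egfr at 72h-αGal are above all 18h-αGal mice.

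The comparison of 72h-αGal with 18h-αGal mice asked whether these levels moved back, and both groups had received αGalCer. The receptors Egfr and Erbb3 were higher at 72 h, by 1.87-fold and 1.52-fold, and no ligand was called. Of the 10 members 2 were called, both higher, where 10.2% of all tested genes were called and 4.18% were called higher. Egfr had 2104, 2246 and 2020 normalised counts at 72 h, all above the 18h-αGal mice, for a log2 fold change of 0.91 ± 0.15 (0.59 to 1.23, edgeR adjusted p = 0.00203). Erbb3 had 10767, 11599 and 10458 at 72 h, also clear of the 18h-αGal mice, for 0.60 ± 0.12 (0.35 to 0.85, edgeR adjusted p = 0.00507). Both receptors were called in all 16 alternatives. Erbb2 had 4527, 4505 and 3860 at 72 h, overlapping 18 h, with an estimate of 0.20 (edgeR adjusted p = 0.342). Lrig1 had 3132, 2835 and 3707 at 72 h, for an estimate of 0.48 ± 0.22 (adjusted p = 0.203 by edgeR).

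For Hbegf the 72 h values were 8597, 8821 and 7546 normalised counts. The lowest of these was just under the highest 18h-αGal mouse, at 7601. The log2 fold change of 0.48 ± 0.15 (0.16 to 0.81) had an edgeR adjusted p of 0.0541, and Hbegf was called in 4 of 16 alternatives, DESeq2 among them. Btc had 105, 204 and 149 at 72 h, for 1.10 ± 0.38 (edgeR adjusted p = 0.0816), and was called in 2 of 16. The least abundant ligands pointed in opposite directions. Egf had 74.1, 36.3 and 60.3 at 72 h, above all 18h-αGal mice, with an estimate of 1.83 ± 0.84 (edgeR adjusted p = 0.195). Ereg had 48.7, 36.3 and 9.57, below all of them, with an estimate of -1.34 ± 0.56 (edgeR adjusted p = 0.151). The groups did not overlap for 4 of 10 members (Egfr, Erbb3, Egf and Ereg), where 32.8% of all tested genes did not overlap. Areg (807, 1016 and 466) and Tgfa (856, 659 and 696) overlapped 18 h, with estimates of -0.41 (adjusted p = 0.349) and -0.21 (adjusted p = 0.470) by edgeR.

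The comparison of 72h-αGal with control mice placed the later time against the level of the PBS controls, which were sampled at 18 h. No member was called by edgeR, DESeq2 or limma. In edgeR, 0 of 10 members had an unadjusted p below 0.05, where 1125 of all 18933 tested genes did. Over all tested genes only 0.0264% were called. The fitted log2 fold changes of the receptors were 0.20 ± 0.15 for Egfr (-0.12 to 0.52), -0.09 ± 0.12 for Erbb3 (-0.34 to 0.15) and 0.03 for Erbb2. All 72h-αGal mice were above all controls for Egfr, the only member without overlap, where 12.7% of all tested genes did not overlap. Hbegf was at -0.06 ± 0.15 (-0.38 to 0.26), so at 72 h a decrease as large as the 18 h estimate of -0.55 lay outside its interval. The estimates of Ereg (-1.15 ± 0.56, -2.35 to 0.05), Egf (0.54 ± 0.81, -1.18 to 2.26) and Areg (-0.51 ± 0.25, -1.04 to 0.02) were the farthest from 0, with wide intervals. Btc was at 0.19, Lrig1 at 0.16 and Tgfa at -0.15, with edgeR adjusted p for all 10 members between 0.841 and 0.995. These 3 comparisons share groups: the same 18h-αGal mice enter the first and the second, and the same controls the first and the third.

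**Figure D3:**
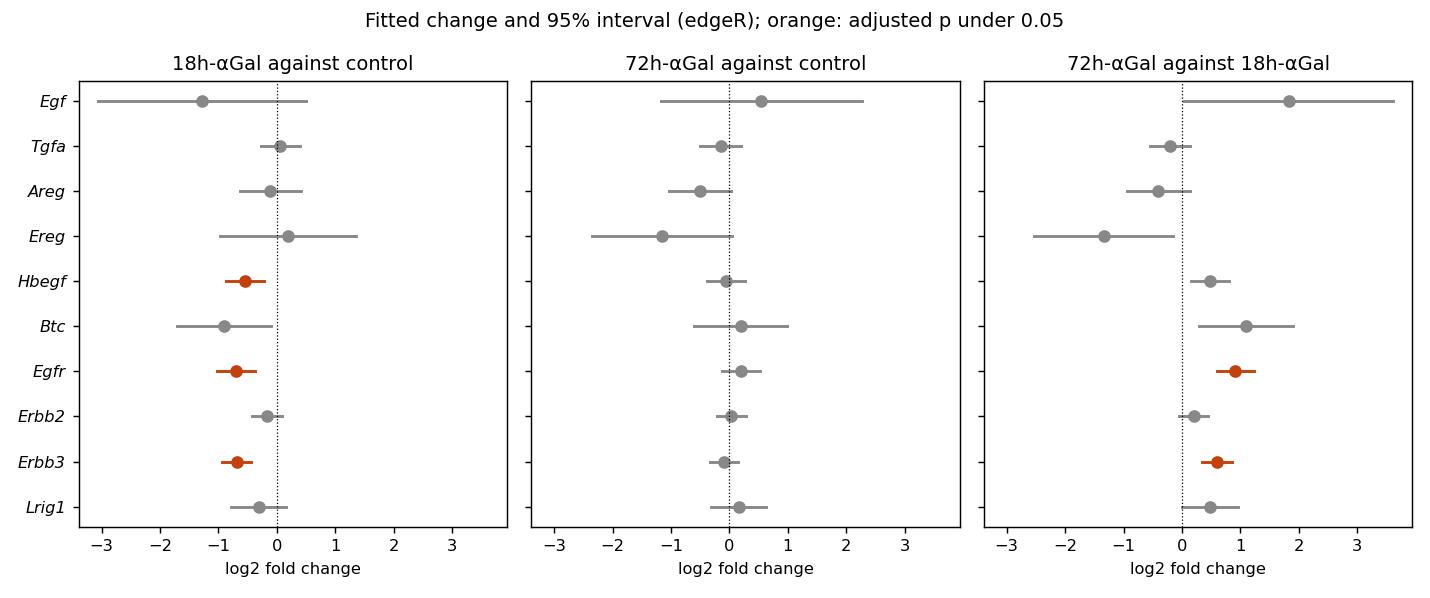
Fitted log2 fold change of each EGF family gene with its 95% interval from edgeR, for 18h-αGal against control (left), 72h-αGal against control (middle) and 72h-αGal against 18h-αGal (right); orange marks an adjusted p under 0.05. Egfr, Erbb3 and Hbegf are called lower on the left, no gene is called in the middle, and Egfr and Erbb3 are called higher on the right.

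The receptor balance was read within each library as a ratio of raw counts to Erbb2, which no scaling between libraries can change. This measure was added after the data were seen, and 9 ratios were compared by a two-sided exact permutation test, whose smallest possible p with 3 mice per group was 0.1. For Erbb3 the ratio was 2.67, 2.82 and 2.82 in controls, 1.98, 1.91 and 1.89 at 18 h and 2.38, 2.57 and 2.71 at 72 h. The 18h-αGal mice lay within a narrow range below all others (exact permutation p = 0.1 against either group). For Egfr the ratio was 0.453, 0.497 and 0.376 in controls and 0.402, 0.307 and 0.214 at 18 h, so that the groups overlapped (exact permutation p = 0.2). At 72 h it was 0.465, 0.499 and 0.523, above all 18h-αGal mice (exact permutation p = 0.1). For Hbegf the ratio was 2.02, 2.09 and 2.08 in controls, 1.29, 1.68 and 1.76 at 18 h and 1.90, 1.96 and 1.95 at 72 h, with no overlap between any pair of groups (exact permutation p = 0.1 for each). The Hbegf ratio at 72 h was thus under all controls, by -0.09 on the log2 scale, while the normalised counts of Hbegf itself overlapped those of controls.

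**Figure D4:**
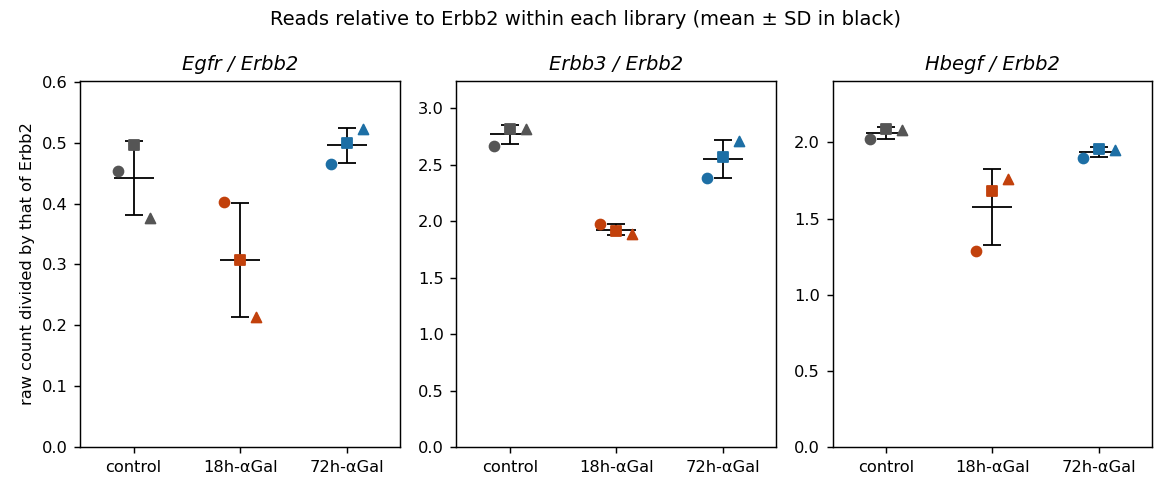
Raw count of Egfr, Erbb3 and Hbegf divided by that of Erbb2 in the same library, for each mouse (circle, square and triangle for replicates 1, 2 and 3) with mean ± SD in black; the axes start at 0. The Erbb3 ratio at 18h-αGal, 1.89 to 1.98, is below every other mouse, and the Egfr ratio of 18h-αGal mouse 1 (0.402) is above that of control mouse 3 (0.376).

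The rest of the pathway was read from 5 lists with 74 genes, of which 69 were tested. The lists were chosen with earlier results of these data known, so their shares of called genes are descriptions and not independent evidence. In 18h-αGal against control mice, 16 of the 69 were called, 3 higher and 13 lower (23.2%, against 5.96% of all genes). This count was 10 without 18h-αGal mouse 2, and 23 without control mouse 3. Over all genes, 432 and 1556 were called in those 2 fits, against 1128 with all libraries. In 72h-αGal against 18h-αGal mice, 25 were called, 20 higher and 5 lower (36.2%, against 10.2%). That number was 15 without 72h-αGal mouse 3 and 16 without 18h-αGal mouse 2, where 831 and 940 of all genes were called, against 1936 with all libraries. In 72h-αGal against control mice none of the 69 was called, where 5 of all 18933 genes were called. An unadjusted p below 0.05 in edgeR was found for 4 of the 69, and for 1125 of all 18933 genes. DESeq2 also called none in that comparison.

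The other ligands and the fourth receptor were scarce. Of the other ErbB ligands and Erbb4, only Nrg1 and Nrg4, which encode neuregulins, had enough reads for the test. Nrg4 had 196, 117 and 99.9 normalised counts in controls and 88.9, 70.1 and 77.3 at 18 h, for a log2 fold change of -0.81 ± 0.35 (edgeR adjusted p = 0.193), with no overlap. Erbb4, the neuregulin receptor, had 29 raw counts in control mouse 1, 8 in 18h-αGal mouse 1 and 0 in the other 7 libraries, where a count of 0 allows 2.21 to 7.13 normalised counts, for counting error only. Among 5 tested genes for shedding of ligands, none was called at 18 h, where 5.96% of all genes were called. Adam17, the main sheddase of several EGFR ligands, had 1047, 1058 and 1053 normalised counts at 18 h, above the controls at 896, 573 and 758 (log2 fold change 0.51 ± 0.16, edgeR adjusted p = 0.0755), and is named here after its values were seen. Rhbdf1, which encodes a cofactor of the sheddase ADAM17, had 225, 289 and 174 normalised counts at 18 h against 484, 355 and 333 in controls (log2 fold change -0.76 ± 0.23, edgeR adjusted p = 0.0618). It was called higher at 72 h than at 18 h, with 576, 476 and 563 normalised counts (1.23 ± 0.23, edgeR adjusted p = 0.00399).

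Inhibitors of the pathway moved in both directions at 18 h. Of 18 tested, 1 was higher and 2 were lower (16.7%, against 5.96% of all genes), with a median log2 fold change of -0.16. Spry1, which encodes a Sprouty inhibitor of receptor tyrosine kinase signalling, had 443, 570 and 361 normalised counts in controls and 211, 184 and 92.4 at 18 h. It fell to 0.359 of the control level (-1.48 ± 0.28, edgeR adjusted p = 0.00603) and was higher again at 72 h (548, 527 and 454). Dusp6, which encodes a phosphatase that inactivates ERK, went the other way, with 404, 447 and 773 in controls and 1139, 1104 and 1598 at 18 h (1.27 ± 0.26, edgeR adjusted p = 0.0118). At 72 h Dusp6 was 387, 553 and 333, lower than at 18 h by a log2 fold change of -1.59. Errfi1, which encodes MIG6, a direct inhibitor of the EGFR kinase, had 2802, 2786 and 2420 in controls against 1740, 1663 and 1834 at 18 h (-0.61 ± 0.12, edgeR adjusted p = 0.00716). In 72h-αGal against 18h-αGal mice, Socs4 was called lower (-0.58) and Lrig3 (0.61), Cbl (0.36) and Cblb (0.59) were called higher. CBL and CBLB are ubiquitin ligases that send EGFR to degradation. At 18 h against control these genes were at 0.35 for Socs4 (edgeR adjusted p = 0.133), -0.28 for Lrig3 (0.287), -0.36 for Cbl (0.0564, no overlap) and -0.53 for Cblb (0.0897).

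Among 25 adaptors and kinases, 1 was higher and 2 were lower at 18 h (12%, against 5.96% of all genes), and the median was 0.08. Gab1, which encodes a docking protein downstream of EGFR, had 1101, 913 and 1013 normalised counts in controls and 719, 519 and 595 at 18 h (-0.71 ± 0.16, edgeR adjusted p = 0.0152). Pik3r1, which encodes the p85α subunit of PI3K, had 6503, 6862 and 6300 against 4566, 4397 and 4611 (-0.53 ± 0.10, edgeR adjusted p = 0.00645). Both were higher at 72 h than at 18 h, by 0.54 and 0.52 on the log2 scale. Akt1 was higher at 18 h (2708, 2471 and 2292 in controls against 3633, 3899 and 2940, log2 fold change 0.49 ± 0.13, edgeR adjusted p = 0.0317). In 72h-αGal against 18h-αGal mice, Plcg1 (0.82) was called higher and Map2k1 (-0.71) and Stat3 (-0.52) were called lower. At 18 h against control they were at -0.50 for Plcg1 (edgeR adjusted p = 0.0754, no overlap), 0.63 for Map2k1 (0.0642) and 0.36 for Stat3 (0.205).

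ERK-responsive transcription genes were called most often. Of 19 tested, 9 were lower and 1 higher at 18 h (52.6% called, against 5.96% of all genes, median -0.53). The 72h-αGal against 18h-αGal comparison called 11 as higher and 1 as lower (63.2%, against 10.2% of all genes, median 0.59). Egr2, an immediate-early transcription factor gene, had 911, 1173 and 678 normalised counts in controls, 368, 352 and 302 at 18 h and 1241, 1154 and 1310 at 72 h. Its log2 fold change at 18 h was -1.43 ± 0.19 (edgeR adjusted p = 0.000628). Atf3 had 6362, 7383 and 6600 in controls against 4196, 4076 and 4159 at 18 h (-0.70 ± 0.10, edgeR adjusted p = 0.00136), and Fos had 29719, 32875 and 30288 against 19637, 22294 and 22695 (-0.52 ± 0.11, edgeR adjusted p = 0.0116). Egr1, Jun and Fosl2 were also lower, by log2 fold changes of -0.65, -0.53 and -0.56. Fosb, at -0.46, had an edgeR adjusted p of 0.0678. Outside the naming rule, Ier2, Junb and Egr3 made up the rest of the 9, and were named after their values were seen. The 1 gene called higher was Ccnd1, which encodes cyclin D1, at 1321, 1630 and 1436 in controls and 3893, 3817 and 2801 at 18 h (1.27 ± 0.15, edgeR adjusted p = 0.000270). In all, 4 of the 19 had estimates above 0. Among these, Etv5 was above all controls but not called (0.69 ± 0.28, edgeR adjusted p = 0.173), and is named after its values were seen. Most genes of this list are immediate-early genes, which many stimuli besides EGF family ligands induce.

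**Figure D5:**
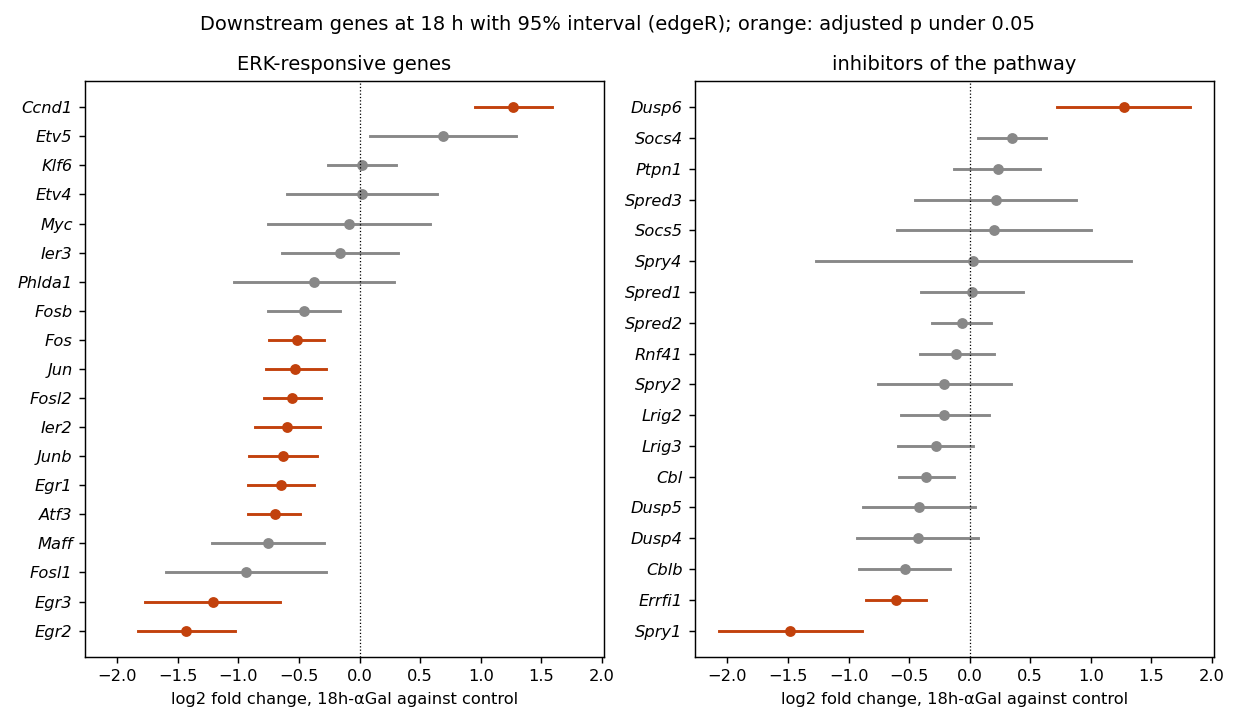
Log2 fold change of 18h-αGal against control with its 95% interval from edgeR, for 19 ERK-responsive genes (left) and 18 inhibitors of the pathway (right); orange marks an adjusted p under 0.05. On the left 9 genes are called lower and Ccnd1 higher, and on the right Spry1 and Errfi1 are called lower and Dusp6 higher.

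Finally, genes whose pattern over the 9 libraries was closest to the called members were listed as a description. Likeness was the root mean square difference of log2(normalised count + 1), each gene centred on its own mean, over 10903 genes with a mean normalised count of at least 100. For Erbb3 these were Pde3a (0.0468), Ralgapa2 (0.0646) and Sema4g (0.0863), against a median of 0.438 over the genes compared. For Hbegf they were Fcsk (0.0898), Stambpl1 (0.0910) and again Sema4g (0.108), with a median of 0.431. Erbb3 and Hbegf themselves differed by 0.145. For Egfr they were Fermt1 (0.103), Filip1l (0.117) and Cbr4 (0.123), with a median of 0.517, and Egfr differed from Erbb3 by 0.269 and from Hbegf by 0.379.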

How the data were processed

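Per the labels, RNA from sorted IECs of 9 mice (3 per group) was extracted with an RNeasy kit and made into ribodepleted, directional NEBNext Ultra II libraries. Raw counts per gene were deposited by the authors, whose processing notes name HISAT2, featureCounts (Subread) and DESeq2 1.42.0. Their methods and notes name different genome builds (GRCm39, and GRCm38 or mm10), and the annotation release and strand setting were not given in the sources used here. A second deposited table, a signal, holds the same counts divided by DESeq2 size factors, called normalised counts by the authors (largest relative difference 6e-15). Exon lengths and positions came from GENCODE vM39 on GRCm39, which matched 28480 of 29288 identifiers, and promoters from RefSeq on GRCm38.p6.

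Here, raw counts of all 9 libraries were fitted by group with edgeR 4.0.16 (filterByExpr, TMM, robust quasi-likelihood), in R 4.3.3. Of 29288 genes 18933 were tested, with Benjamini-Hochberg adjustment over all of them and an adjusted p below 0.05 as a call. SE was the estimate divided by the square root of F, and 95% intervals used the fit's degrees of freedom. DESeq2 1.42.0, RLE size factors, no low-count filter, a filter of CPM 1 in 3 libraries, a replicate block, only the groups compared, limma 3.58.1 on log2(normalised count + 1), CPM with TMM library sizes for ratios of means, and leaving out each library were tried. The scripts were tested on simulated data.

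Total counts per library set the precision, and the detection floor of 3 counts was 1.76 to 7.13 normalised counts. All members were named. Of each pathway list, genes called in any comparison were named, at most 8 with the smallest adjusted p, or the gene with the smallest p where none was called. Members and lists were chosen with earlier results of these data known.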

Additional observations from a re-analysis of the deposited data

Results flagged for a closer look

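The 72 h effect differed from the 18 h effect, by the edgeR test of 72h-αGal against 18h-αGal, for 2 of the 10 EGF family genes and 21 named pathway genes. Pathway genes were named because they were called in some comparison, this one among them, so the 21 was largely set by that rule. Of all 69 pathway genes tested, 25 were called in this test (36.2%, against 10.2% of all tested genes). The values that follow are the 72 h log2 fold change minus the 18 h one, both against the same 3 controls, so each equals the difference between the αGalCer groups. It was 0.91 for Egfr and 0.60 for Erbb3, the receptors that were lower at 18 h.

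Among genes of shedding and inhibition, the difference was 1.23 for Rhbdf1, 1.64 for Spry1, 0.50 for Errfi1, 0.61 for Lrig3, 0.36 for Cbl and 0.59 for Cblb, and it was negative for Dusp6 (-1.59) and Socs4 (-0.58). Among adaptors and kinases it was 0.82 for Plcg1, 0.52 for Pik3r1, 0.54 for Gab1, -0.71 for Map2k1 and -0.52 for Stat3. Among ERK-responsive genes it was 1.86 for Egr2, 0.91 for Atf3, 0.80 for Fosl2, 0.70 for Fos, 0.85 for Fosb, 0.60 for Egr1, 0.55 for Jun and -1.07 for Ccnd1. Single values were not tested as outliers within groups of 3 mice.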

How the results depend on the processing

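Of the members' log2 fold changes, 204 of 210 under other settings and 248 of 270 with a library left out kept their direction and their side of the threshold; of the named pathway genes, 228 of 238 and 253 of 306 did. With 1 library left out, 1 to 3 members were called at 18 h against control (3 with all libraries, and 1, Erbb3, without 18h-αGal mouse 2), 0 in 72h-αGal against control mice, and 2 to 3 in 72h-αGal against 18h-αGal mice (2 with all libraries), where DESeq2 called 4 (Egfr, Erbb3, Hbegf and Btc). Pathway genes called ranged from 10 to 23 at 18 h (16 with all libraries) and from 15 to 28 between the αGalCer groups (25 with all libraries). Signs turned with a library left out only for small or noisy estimates. At 18 h these ranged from -2.53 to 0.29 for Egf, -0.05 to 0.16 for Tgfa, -0.24 to 0.06 for Areg and -0.08 to 0.63 for Ereg. In 72h-αGal against control mice they ranged from -0.10 to 0.03 for Hbegf, -0.06 to 0.40 for Btc, -0.01 to 0.11 for Erbb2 and -0.14 to 0.01 for Erbb3.

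Over all genes, 1128 were called at 18 h, 1720 by DESeq2, 593 with only the 2 groups compared and 432 to 1556 with a library left out. In 72h-αGal against control mice 5 were called, 31 by DESeq2, 13 without the filter and 0 to 20 with a library left out. Between the αGalCer groups 1936 were called, 2494 by DESeq2 and 831 to 2593 with a library left out. The causes were not tested.

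Replicate numbers did not pair the mice: deviations of same-numbered mice correlated at -0.15 to 0.115, and 4 of 18 were highest for their own number. With the replicate block, 2 members were called at 18 h (Erbb3 and Egfr, with Hbegf at an edgeR adjusted p of 0.0595), 0 and 2 in the other comparisons, and 781, 1 and 1371 genes in all. Egf had 6 to 94 raw counts per library. All 30 ratios of group means moved by less than the replicate spread with TMM library sizes.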
